A study of Mus musculus with 24 samples.

Results

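The comparison described here is the lung response to particulate matter (PM) in dnCREB mice, measured on 3 arrays from dnCREB lungs after PM and 3 arrays from dnCREB lungs after phosphate-buffered saline (PBS). The members were chosen by their titles, and they are 6 of the 24 arrays in the series. The whole series holds 8 groups of 3 arrays, covering lung and left ventricle in dnCREB and wild-type mice given PM or PBS. In dnCREB mice the alpha myosin heavy chain promoter, which is active in cardiomyocytes, drives a dominant negative CREB1. The lung arrays also held RNA of cardiac and pulmonary vein muscle genes, as given below. Whether the transgene was expressed in these lungs was not tested. All animals were of the CD-1 strain, were 20 weeks old and were described as male. The PM dose was 20 mg/kg of particles of 1.9 µm, with the tissue taken after 36 h, and the labels give no time point for the PBS lungs. The series text speaks of groups of 3 animals, and the p-values below measure the spread between these arrays. Wild-type lungs, 3 after PM and 3 after PBS, carry no transgene. They enter the same fit, where they add to the estimate of spread, and they give the comparison of changes between genotypes.

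Inhaled or instilled particles are taken up in the airspaces by alveolar macrophages and touch the airway and alveolar epithelium. The early response of the lung is known for cytokine and chemokine release, recruitment of neutrophils and monocytes, acute phase proteins, and, with organic particle components, induction of cytochrome P450 genes through the aryl hydrocarbon receptor. CREB is a transcription factor activated by cyclic AMP signalling, and its dominant negative form in the heart gives mice a dilated cardiomyopathy, so these lungs belong to animals used as a model of cardiac failure.

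Values are log2 expression per probe set, so a difference of 1 is a doubling, and a level compares one gene between arrays but not different genes. For each gene the probe set brightest on average across the 24 arrays was used. Of 18193 genes, 11600 had a log2 value above 4 in at least 3 of the 12 lung arrays and were tested. The 15 pairs among the 6 dnCREB lung arrays had Pearson correlations of 0.984 to 0.994 over probe sets, and 0 pairs were identical. The lung was recognisable by its defining genes (Sftpc and Scgb1a1 were picked with their values known): Sftpc, the surfactant protein of alveolar type II cells, stood at 15.22, 15.23 and 15.19 in PM lungs, against 15.32, 15.44 and 15.36 in PBS lungs. Scgb1a1, the secretory protein of club cells, stood between 15.53 and 15.72 in PM lungs and between 15.62 and 15.76 in PBS lungs. Creb1 itself was at 10.87, 10.96 and 10.91 in PM lungs and 10.87, 11.01 and 11.06 in PBS lungs, and these ranges overlapped. In such bulk tissue, fewer cells of a type and less RNA per cell cannot be told apart.

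Some arrays carried RNA of tissue that is not alveolar, and this differed within both groups. The mean level of 20 fast skeletal muscle genes was 4.20, 3.96 and 8.92 in PM lungs 1, 2 and 3, against 8.93, 4.27 and 8.23 in PBS lungs 1, 2 and 3. The mean of 11 squamous epithelium genes, typical of oesophagus and skin, was 3.45, 3.37 and 6.35 in PM lungs, against 8.92, 3.26 and 7.71 in PBS lungs. PM lung 3 and PBS lungs 1 and 3 were thus high in both lists, and the other PM lungs and PBS lung 2 were low. Cardiac and pulmonary vein muscle genes averaged 7.80, 8.0 and 8.49 in PM lungs and 9.77, 7.57 and 7.69 in PBS lungs. Adipocyte genes averaged 8.80, 8.72 and 8.80 in PM lungs and 10.87, 8.32 and 8.86 in PBS lungs. PBS lung 1 was the highest array in both of these lists. Ucp1, the uncoupling protein of brown fat, which was too low elsewhere to be tested, was at 10.29 in PBS lung 1 and between 2.20 and 2.31 in the other 5 lungs. Of the cardiac list, 18, 18 and 19 of 21 members were above 4 in PM lungs and 21, 18 and 19 in PBS lungs.

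**Figure D1:**
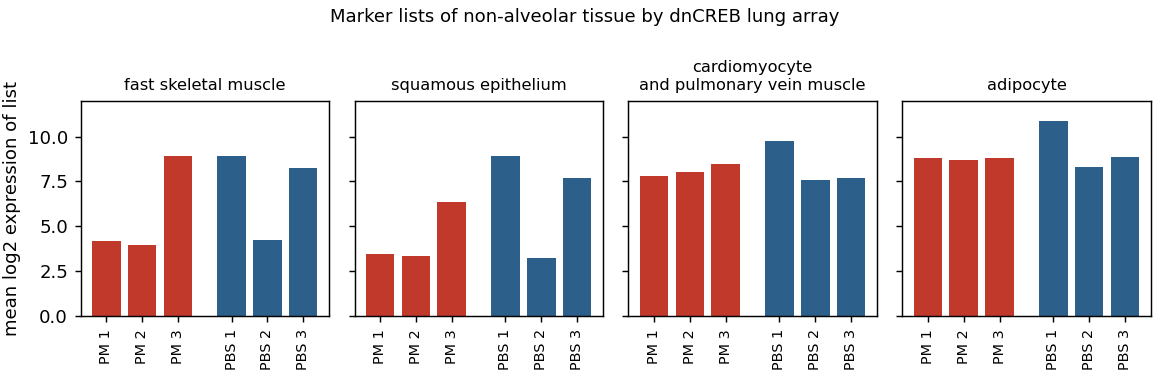
Mean log2 expression of 4 marker lists in each dnCREB lung array, with PM lungs in red and PBS lungs in blue. Fast skeletal muscle genes average 8.92 in PM lung 3, 8.93 in PBS lung 1 and 8.23 in PBS lung 3, against 3.96 to 4.27 in the other 3 arrays.

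The labelled sex also did not hold in every array. Xist, the RNA that coats the inactive X chromosome of female cells, stood at 11.72, 12.34 and 12.52 in PM lungs, against 2.95, 12.70 and 3.02 in PBS lungs. All PM lungs and PBS lung 2 were thus high and PBS lungs 1 and 3 low, so the groups overlapped. Uty, on the Y chromosome, was between 2.60 and 2.63 in PM lungs and between 2.53 and 2.55 in PBS lungs. Eif2s3y, also on the Y chromosome, was at 3.39, 3.33 and 3.22 in PM lungs and at 3.18, 3.18 and 3.17 in PBS lungs, while wild-type PBS lungs held 9.24 to 10.19. PBS lungs 1 and 3 were thus low both in Xist and in these Y-linked genes. With the Xist level as a covariate, Cpxm2, described next, differed by 1.73 with an adjusted p of 0.1827 in limma, and 1 other gene, Tap1, passed.

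In the fit across all genes, 1 gene passed the threshold: Cpxm2, which encodes a secreted protein of the carboxypeptidase family. Its level was 5.48, 5.65 and 5.03 in PM lungs, against 3.41, 3.53 and 3.79 in PBS lungs. All PM lungs were above all PBS lungs. The log2 difference was 1.81 ± 0.21 (SE), with an adjusted p of 0.0416 by limma with Benjamini-Hochberg adjustment over the 11600 genes. All 3 PBS lungs were under 4, so the fold is given as a bound, at least 2.61-fold higher in PM lungs than that level. In wild-type lungs the difference of Cpxm2 was 2.22 with an adjusted p of 0.0028. Leaving out each of the 12 lung arrays in turn gave adjusted p-values of 0.0334 to 0.3273, and the call held in 2 of those 12 fits, without PM lung 3 and without wild-type PBS lung 1. On the 6 dnCREB arrays alone its adjusted p was 0.1063. Cpxm2 was above 4 only in PM lungs, of either genotype, and met the filter on low values only through them. With no filter on low values its adjusted p in limma was 0.0590.

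The single call was 0.00862% of the genes tested, while 1127 genes, 9.72%, had an unadjusted p under 0.05. Of these, 837 (7.22%) were higher in PM lungs and 290 (2.5%) lower. In 2414 genes, 20.8%, all PM lungs were above all PBS lungs, and in 957, 8.25%, all were below. These splits rest on the scaling of the arrays: the median log2 difference of all genes was 0.073, and it moved to -0.047 when each array was centred on its median. After centring, 463 genes were higher and 610 lower at an unadjusted p under 0.05, and 1119 (9.65%) and 2028 (17.5%) did not overlap above and below. Counts over gene lists are therefore given below with the centred counts beside them. They are to be read against the shares of all genes, 20.8% above and 8.25% below, or 9.65% and 17.5% after centring. A count near those shares is not a trait of its list. Medians of lists are uncentred.

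The 9 other genes higher in PM lungs with the smallest p and groups that do not overlap did not pass. Their adjusted p-values ran up to 0.1703. Rgs4, a regulator that speeds the shut-off of G protein signalling, stood at 8.89, 9.37 and 9.04 in PM lungs, against 7.90, 8.17 and 7.63 in PBS lungs. Marcksl1, an actin-binding protein kinase C substrate, stood at 8.78, 9.63 and 9.68 in PM lungs, against 8.09, 7.37 and 7.82 in PBS lungs. Eomes, a T-box transcription factor of natural killer and cytotoxic T cells, stood at 4.57, 4.81 and 4.06 in PM lungs, against 2.62, 3.43 and 3.28 in PBS lungs. In each of the 3 genes every PM lung was above every PBS lung. Adgrg3, an adhesion G protein-coupled receptor expressed in granulocytes, stood at 5.84, 6.38 and 5.80 in PM lungs and at 4.36, 5.03 and 4.60 in PBS lungs. Fam167b was at 3.40, 4.56 and 4.23 in PM lungs and 2.11, 2.35 and 1.75 in PBS lungs. Eomes and Fam167b were above 4 only in PM lungs, of either genotype, and met the filter on low values only through them. The remaining 4 were Tmem250-ps (difference 1.54), Lhfpl2 (1.29), Tmem158 (1.12) and Ninl (0.90). Second probe sets of Lhfpl2, Rgs4 and Eomes differed by 0.19, 0.72 and 0.51.

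The 10 genes lower in PM lungs that came nearest to passing had adjusted p-values of 0.1571 to 0.2267. Runx1, a transcription factor of blood cell development, stood at 6.86, 6.57 and 6.63 in PM lungs, against 7.65, 7.90 and 7.87 in PBS lungs. Fbln1, a matrix glycoprotein of elastic fibres and basement membranes, stood at 7.68, 7.36 and 7.03 in PM lungs, against 9.06, 9.35 and 8.79 in PBS lungs. Gja5, the gap junction protein of arterial endothelium and atrial muscle, stood at 3.12, 3.42 and 3.41 in PM lungs, against 4.02, 4.84 and 5.2 in PBS lungs. In all 3, each PM lung was below each PBS lung. Gja5 was above 4 only in the dnCREB PBS lungs, so it met the filter on low values only through the group where it was high. Runx1 had 2 further probe sets, with differences of -1.62 and 0.20, so its probe sets disagreed. Mr1, which presents vitamin B metabolites to mucosal T cells, stood at 6.59, 5.97 and 6.56 in PM lungs, against 7.91, 8.14 and 7.95 in PBS lungs, and its second probe set differed by -1.61. Scel, a cornified envelope protein that is also made in alveolar type I cells, stood at 11.03, 10.57 and 10.57 in PM lungs and at 11.59, 11.97 and 11.40 in PBS lungs. The other 5 were Ica1 (-1.25), Net1 (-1.17), Laptm4a (-0.94), Snrpd3 (-0.81) and Fbxo21 (-0.77), and second probe sets of Ica1, Snrpd3 and Fbxo21 differed by -0.10, 0.06 and -0.08. That of Fbln1 differed by -0.71.

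**Figure D2:**
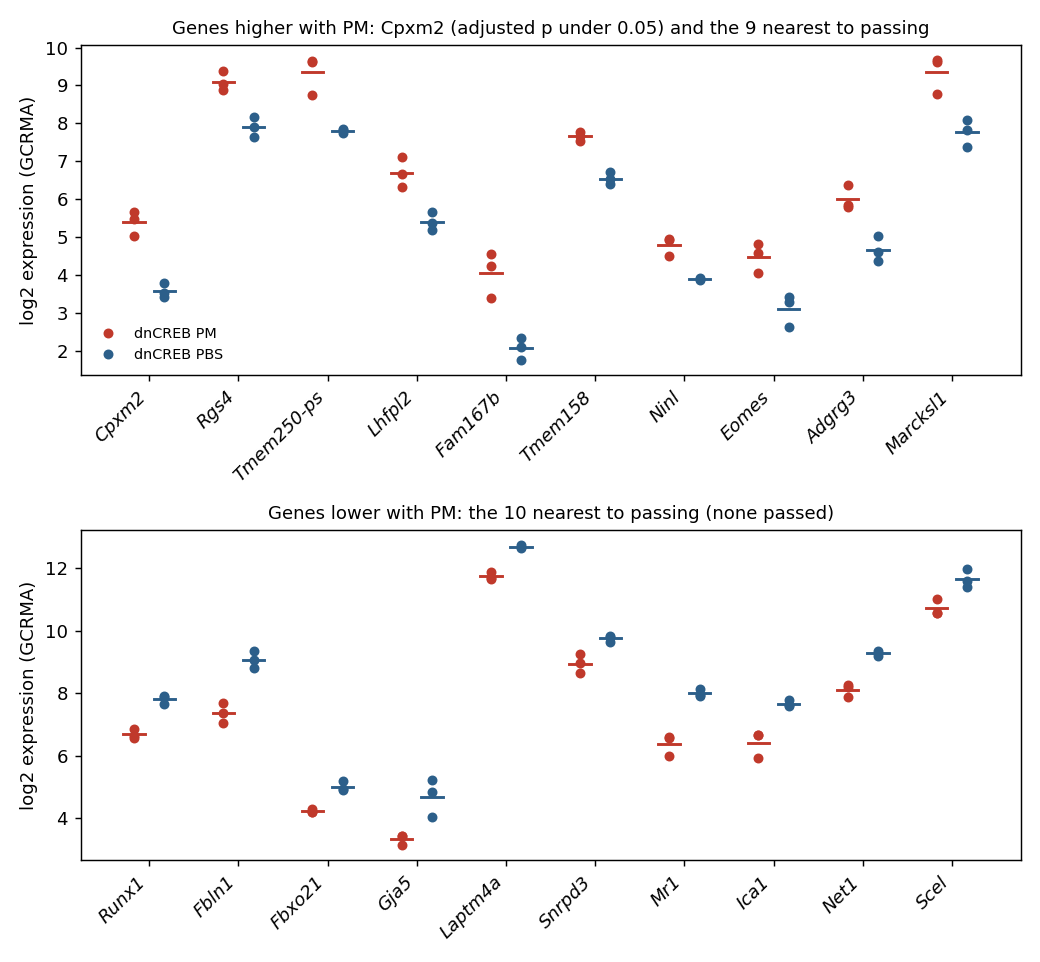
Log2 expression of the 10 genes higher and the 10 genes lower in PM lungs with the smallest p, as points per array (PM red, PBS blue) with a bar at each group mean, n = 3. Cpxm2 passed the adjusted threshold, and the other 19 are shown as values.

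Matrix genes were the list with the most members above by count, and also the list with the most members tested. All PM lungs were above all PBS lungs in 19 of 32 extracellular matrix and turnover genes measured and below in 0, and 15 and 1 after centring, against 20.8% and 8.25% of all genes. The list's median difference was 0.66, beside 0.07 for all genes, and 0 members passed the adjusted threshold. Ltbp2, which binds elastic microfibrils, stood at 10.15, 11.28 and 10.98 in PM lungs, against 8.55, 9.22 and 8.68 in PBS lungs. The difference was 1.99 ± 0.37 (SE), with an adjusted p of 0.1703 in the limma fit. Timp1, an inhibitor of matrix metalloproteinases, stood at 5.51, 7.12 and 8.0 in PM lungs, against 4.17, 2.73 and 4.24 in PBS lungs. Mmp12, the elastase of macrophages, stood at 6.94, 6.48 and 9.60 in PM lungs, against 4.77, 4.11 and 5.23 in PBS lungs. PM lung 3 held the highest Timp1 and Mmp12 level of the 6 arrays, and that array was also high in skeletal muscle genes. With the muscle level as a covariate the list's median was 0.61. Without the 5 lung arrays high in skeletal muscle genes the median was 0.71, but of the dnCREB lungs this leaves PM lungs 1 and 2 and only PBS lung 2. The same limit holds for every value given below without the 5 arrays.

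Further elastic fibre and collagen genes of the list were picked with their values known. Eln, elastin itself, stood at 10.44, 12.61 and 11.18 in PM lungs, against 8.18, 9.63 and 7.41 in PBS lungs. The difference of Eln was 3.01 ± 0.72 (SE), with an adjusted p of 0.2393 by limma. Lox, the enzyme that crosslinks elastin and collagen, stood at 10.39, 11.83 and 11.96 in PM lungs, against 9.21, 10.15 and 7.97 in PBS lungs. Each PM lung was above each PBS lung in both genes. Mmp14, a membrane-bound collagenase, stood at 8.77, 9.56 and 9.80 in PM lungs and at 8.14, 8.41 and 7.31 in PBS lungs, a difference of 1.42, while its 2 other probe sets differed by 0.27 and 0.53. Col1a1, the main chain of fibrillar collagen, stood at 10.84, 11.64 and 10.21 in PM lungs and at 9.83, 9.85 and 9.93 in PBS lungs. Fbln1, another elastic fibre component, ran the other way, as given above.

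Interferon-induced genes lay mostly above. In 12 of 22 measured members all PM lungs were above all PBS lungs, and in 1, Stat2, all were below. After centring these counts were 11 and 1. The median difference was 0.79, or 0.67 after centring, with 0 members called. Stat2, a transcription factor of the interferon pathway, stood at 5.20, 6.06 and 6.43 in PM lungs, against 6.75, 6.81 and 7.18 in PBS lungs. Igtp, a GTPase induced by interferon gamma that guards vacuoles, stood at 8.89, 9.57 and 9.30 in PM lungs, against 8.11, 7.90 and 7.99 in PBS lungs. Oas1a, which senses double-stranded RNA, stood at 6.72, 8.19 and 7.02 in PM lungs, against 5.07, 4.97 and 6.04 in PBS lungs. Ifit1, which binds viral RNA, stood at 8.01, 9.58 and 7.63 in PM lungs, against 6.47, 6.79 and 6.85 in PBS lungs. Groups did not overlap in these 3 genes, and PM lung 2 was the highest array in each. Their adjusted p-values in limma were 0.2393, 0.3100 and 0.3100. Tap1, a peptide transporter of antigen presentation, was picked with its values known and stood at 7.58, 7.6 and 7.57 in PM lungs and at 6.52, 5.93 and 6.57 in PBS lungs, with an adjusted p of 0.2208.

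The promoters of Igtp, Oas1a and Ifit1 are shown because these genes lead the interferon list, and the element searched was the core of the interferon-stimulated response element, GAAA and a second GAAA with any 2 bases between them, on either strand. Sequences are RefSeq promoters of GRCm38.p6, 250 bases before to 50 after the transcription start, 5′ to 3′ on the gene's strand, with the element in capitals. They lie at chr11:58199306-58199605 on the plus strand for Igtp, at chr5:120907476-120907775 on the minus strand for Oas1a and at chr19:34640639-34640938 on the plus strand for Ifit1. Igtp held 1 match, and Oas1a and Ifit1 held 2 each. Those of Oas1a overlap one another, and those of Ifit1 lie on the opposite strand, so its capitals read as the reverse complement.
Igtp: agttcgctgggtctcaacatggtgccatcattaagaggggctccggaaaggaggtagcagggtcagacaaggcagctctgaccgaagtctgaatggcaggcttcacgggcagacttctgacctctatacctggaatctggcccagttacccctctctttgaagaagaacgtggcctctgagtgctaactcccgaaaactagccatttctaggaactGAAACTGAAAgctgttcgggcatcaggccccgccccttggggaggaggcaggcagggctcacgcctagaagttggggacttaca
Oas1a: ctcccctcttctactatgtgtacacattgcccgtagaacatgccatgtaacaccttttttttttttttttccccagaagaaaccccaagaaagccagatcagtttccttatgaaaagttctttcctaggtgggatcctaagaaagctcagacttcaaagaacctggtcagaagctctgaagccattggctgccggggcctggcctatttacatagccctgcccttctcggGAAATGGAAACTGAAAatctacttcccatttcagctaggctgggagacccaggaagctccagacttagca
Ifit1: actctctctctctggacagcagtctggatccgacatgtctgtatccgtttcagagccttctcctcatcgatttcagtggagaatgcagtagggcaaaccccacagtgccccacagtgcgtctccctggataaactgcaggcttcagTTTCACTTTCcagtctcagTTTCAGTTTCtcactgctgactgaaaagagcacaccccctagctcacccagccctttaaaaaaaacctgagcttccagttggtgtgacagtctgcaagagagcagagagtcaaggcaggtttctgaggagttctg

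Of the 22 interferon members, 16 had a promoter in RefSeq's table, and 12 of those, 75%, held the element. It was found in 352 of 9398 tested genes with a promoter, 3.75%, and in 3.99% of all 27025 promoters of that length. A match is a description of the letters in the window and does not show binding.

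Acute phase and complement genes were above without overlap in 7 of 14 measured members and below in 0, and 5 and 0 after centring, with a median difference of 0.72 that was 1.2 without the 5 lung arrays high in skeletal muscle genes. C1qb, a chain of the complement initiator C1q, stood at 10.01, 10.23 and 11.25 in PM lungs, against 9.13, 8.03 and 8.92 in PBS lungs. Its difference was 1.81 ± 0.38 (SE), with an adjusted p of 0.2226 by limma, and 2 further probe sets differed by 1.26 and 1.76. C1qc, the next chain, stood at 7.10, 7.27 and 8.06 in PM lungs, against 6.58, 4.93 and 5.72 in PBS lungs. C1qa, picked with its values known, stood at 9.01, 9.13 and 10.45 in PM lungs and at 9.18, 8.13 and 9.03 in PBS lungs, and its groups overlapped. Serpina3n, an acute phase protease inhibitor, stood at 8.53, 9.41 and 10.82 in PM lungs, against 7.81, 7.63 and 7.59 in PBS lungs. Saa3, an acute phase apolipoprotein picked with its values known, stood at 7.86, 8.58 and 12.99 in PM lungs, against 8.20, 6.39 and 6.39 in PBS lungs, so PM lung 3 stood apart and the groups overlapped. Serpina3n was also highest in PM lung 3.

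Chemokines had 5 of 16 measured members above without overlap and 0 below, both before and after centring, with a median difference of 0.66. The share of all genes above was 20.8%, or 9.65% after centring. Ccl9, which attracts monocytes, stood at 8.53, 9.09 and 10.04 in PM lungs, against 7.82, 7.86 and 7.80 in PBS lungs, a difference of 1.39, and its second probe set differed by 0.57. Cxcl10, an interferon-induced attractant of T cells, stood at 5.95, 4.88 and 6.47 in PM lungs, against 4.37, 4.04 and 4.65 in PBS lungs. Ccl5, which attracts T cells and monocytes, stood at 10.02, 10.45 and 9.78 in PM lungs, against 9.19, 8.81 and 9.30 in PBS lungs. The 3 groups of PM values lay above those of PBS, with adjusted p-values of 0.3093, 0.3241 and 0.3440 in limma. Ccl8 and Ccl12, monocyte attractants chosen after their values were seen, differed by 2.13 and 1.88, and the groups of Ccl12 overlapped. Among 7 cytokines and growth signals measured, 1 was above without overlap and 0 below, before and after centring, and the median was 0.30 (0.19 without the 5 arrays). Lif, a cytokine of the interleukin 6 family, stood at 3.42, 4.18 and 4.67 in PM lungs and at 3.58, 3.57 and 3.58 in PBS lungs, and the groups overlapped. Il6 was too low to be tested, with 2.29, 2.40 and 5.19 in PM lungs and 2.21, 2.23 and 2.24 in PBS lungs, so that PM lung 3 alone stood above the low range.

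Macrophage and monocyte genes were above without overlap in 12 of 22 measured members and below in 2, and 10 and 2 after centring, with a median of 0.57. Mpeg1, a pore-forming protein of macrophages, stood at 11.21, 11.45 and 11.47 in PM lungs, against 10.69, 10.75 and 10.50 in PBS lungs. Aif1, an actin-bundling protein of macrophages, stood at 6.89, 7.23 and 8.22 in PM lungs, against 6.35, 6.25 and 6.26 in PBS lungs. Fcgr1, the high-affinity immunoglobulin G receptor, stood at 5.80, 6.77 and 7.10 in PM lungs, against 4.74, 5.23 and 5.41 in PBS lungs. All PM lungs were above all PBS lungs in these 3 genes, and both members that were lower, Lyz1 and Lyz2, encode lysozyme. Neutrophil genes gave 5 of 14 above and 0 below (3 and 0 after centring), with a median of 0.30 that was 0.17 without the 5 arrays. Camp, the cathelicidin of neutrophil granules, stood at 5.34, 6.00 and 7.01 in PM lungs and at 4.81, 3.75 and 5.04 in PBS lungs, and the groups did not overlap.

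Lymphocyte genes went in both directions. Of 18 T and cytotoxic lymphocyte genes, 5 were above without overlap and 3 below (5 and 5 after centring), and the median was -0.25. Among all genes 20.8% were above and 8.25% below (9.65% and 17.5% after centring), so the uncentred counts were not far above those shares. Nkg7, of cytotoxic granules, stood at 7.0, 7.54 and 7.06 in PM lungs, against 5.94, 5.74 and 6.05 in PBS lungs, with an adjusted p of 0.1756 by limma. Gzmb, the protease granzyme B, stood at 7.15, 8.13 and 7.57 in PM lungs, against 6.27, 5.98 and 6.17 in PBS lungs. Gzma, granzyme A, stood at 10.67, 11.45 and 11.07 in PM lungs, against 9.86, 10.003 and 9.84 in PBS lungs. The members above were Nkg7, Gzmb, Gzma, Prf1 and Ccl5, and those below were Cd3g, Cd8b1 and Cd28, all T cell surface proteins. Cd8b1 stood at 4.59, 4.43 and 4.67 in PM lungs, against 7.81, 5.12 and 5.61 in PBS lungs, with PBS lung 1 the highest. Cd28 stood at 7.19, 6.53 and 6.16 in PM lungs and at 8.0, 7.32 and 7.22 in PBS lungs. Tbx21, the T-box factor of type 1 and natural killer cells, was picked with its values known and stood at 4.94, 6.02 and 5.56 in PM lungs and at 3.76, 3.52 and 3.66 in PBS lungs. Of 16 B and plasma cell genes, 2 were above without overlap and 0 below, before and after centring, with a median of 0.17. Of 12 class II and dendritic cell genes, 1 was above and 0 below (0 and 1 after centring), with a median of 0.06. Without the 5 arrays these medians were 0.60 and 0.24.

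In the list of aryl hydrocarbon receptor and xenobiotic genes, the members without overlap were below rather than above. Of 12 measured, 0 were above without overlap and 6 below, before and after centring. The share of all genes below was 8.25%, or 17.5% after centring. The list's median was -0.31 (-0.20 without the 5 arrays). Cyp1a1 and Cyp1b1 were the 2 members with a positive difference. Cyp1a1, the cytochrome P450 that the receptor induces most directly, stood at 6.58, 7.01 and 8.08 in PM lungs, against 6.59, 6.81 and 5.06 in PBS lungs, and the groups overlapped. Its difference was 1.07 ± 0.53 (SE), with an adjusted p of 0.5528 by limma, and it was -0.01 without the arrays high in skeletal muscle genes. Cyp1b1, a related P450, stood at 5.70, 6.16 and 6.38 in PM lungs and at 5.87, 5.15 and 4.45 in PBS lungs, also overlapping. Its difference was 0.92 and that of its second probe set 0.04. The members below included Cyp2f2, the P450 of club cells, at 13.62, 13.22 and 13.42 in PM lungs, against 13.98, 14.03 and 13.91 in PBS lungs. Gsta3, a glutathione transferase, stood at 11.22, 10.03 and 10.93 in PM lungs, against 11.92, 11.37 and 12.34 in PBS lungs. Tiparp, a polymerase that restrains the receptor, stood at 8.95, 8.82 and 8.62 in PM lungs, against 9.58, 9.08 and 9.35 in PBS lungs. In these 3 genes every PM lung was below every PBS lung.

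Of 18 oxidative stress and metal response genes, 4 were above without overlap and 1 below (2 and 3 after centring), with a median of 0.08. These counts were near the shares of all genes, 20.8% above and 8.25% below (9.65% and 17.5% after centring). Hmox1, the haem-degrading oxygenase, stood at 6.50, 6.89 and 8.39 in PM lungs, against 6.28, 6.13 and 5.89 in PBS lungs, and the groups did not overlap. Mt2, a metal-binding metallothionein, stood at 10.23, 10.85 and 11.82 in PM lungs and at 10.003, 8.27 and 10.52 in PBS lungs, and the groups overlapped. Gstm1, a glutathione transferase, ran below, at 12.23, 11.46 and 11.91 in PM lungs against 12.77, 12.96 and 12.61 in PBS lungs. In coagulation and fibrinolysis, 4 of 15 were above and 1 below (4 and 2 after centring), with a median of 0.28 that was 0.07 without the 5 arrays. The uncentred counts of this list were also near the shares of all genes. F3, tissue factor, stood at 9.53, 10.04 and 10.35 in PM lungs and at 9.85, 10.11 and 9.50 in PBS lungs, and the groups overlapped. Procr, the endothelial protein C receptor, stood at 9.49, 9.72 and 9.60 in PM lungs, against 8.81, 8.78 and 8.77 in PBS lungs, with an adjusted p of 0.2226 by limma.

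Among cell cycle genes, 8 of 17 were above and 1 below (4 and 1 after centring), with a median of 0.46 that was 0.96 without the 5 arrays. Mcm3, a subunit of the replicative helicase, stood at 8.44, 8.94 and 8.70 in PM lungs, against 8.28, 7.63 and 8.10 in PBS lungs, and 1 of its 3 other probe sets differed by -0.24. Immediate early and CREB target genes gave 4 of 27 above and 5 below (4 and 10 after centring), with a median of -0.31. For both lists the shares of all genes were 20.8% above and 8.25% below, or 9.65% and 17.5% after centring. The count of immediate early and CREB target genes below rose with centring, as did the share of all genes below. Jun, a subunit of the AP-1 factor, stood at 11.22, 10.80 and 10.99 in PM lungs, against 11.87, 12.10 and 12.01 in PBS lungs, a difference of -0.99, and its second probe set differed by -0.31. Fos, its partner, stood at 9.48, 10.50 and 9.67 in PM lungs, against 11.51, 11.25 and 10.77 in PBS lungs. Each PM lung was below each PBS lung for both, while Crtc2, a coactivator of CREB, was at 7.10, 6.70 and 6.59 in PM lungs and 6.23, 6.30 and 6.08 in PBS lungs. Atf4, a stress-induced transcription factor, stood at 10.63, 10.88 and 11.42 in PM lungs and at 10.21, 10.44 and 10.37 in PBS lungs. Its difference was 0.63, while its second probe set differed by 0.01.

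Clock genes had a median difference of -0.74 over 16 members, with 0 above and 2 below (0 and 3 after centring). Without the 5 lung arrays high in skeletal muscle genes, which leaves PM lungs 1 and 2 and PBS lung 2, that median was -0.21. Nr1d2, a nuclear receptor that represses Bmal1, stood at 12.08, 10.85 and 11.46 in PM lungs, against 12.61, 12.18 and 12.93 in PBS lungs, a difference of -1.11, and its second probe set differed by -3.86. Nfil3, a repressor in the clock's output loop, stood at 4.32, 6.64 and 5.70 in PM lungs and at 3.04, 4.42 and 3.74 in PBS lungs, and its groups overlapped. The labels give no hour of tissue collection for either group, and its part in these values was not tested. Glucocorticoid response genes gave 5 of 18 above and 2 below, with a median of 0.14, and heat shock and unfolded protein response genes 4 of 24 and 0, with a median of 0.09. After centring these were 3 and 3, and 1 and 1. The shares of all genes were 20.8% above and 8.25% below, and 9.65% and 17.5% after centring. Without the 5 arrays the medians were -0.11 and 0.16.

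The lists of resident lung cells had medians between -0.20 and 0.04 in epithelium, endothelium and fibroblasts. They were -0.02 for 15 alveolar type II genes, -0.19 for 13 alveolar type I genes, -0.10 for 16 club and mucous cell genes, -0.20 for 17 ciliated cell genes, 0.04 for 23 endothelial genes and 0.04 for 15 fibroblast genes. Above and below without overlap were 4 and 3 type II genes, 0 and 4 type I genes, 1 and 4 club and mucous genes, 0 and 4 ciliated genes, 3 and 2 endothelial genes and 4 and 1 fibroblast genes. After centring these counts were 3 and 4 for type II, 0 and 5 for type I, 0 and 7 for club and mucous, 0 and 4 for ciliated, 0 and 3 for endothelial and 3 and 5 for fibroblast genes. The balance of the type II, endothelial and fibroblast lists thus turned with the scaling. So did that of all genes, from 20.8% above and 8.25% below to 9.65% and 17.5%. Without the 5 arrays high in skeletal muscle genes the median of ciliated genes was -0.72, that of type I genes -0.35 and that of club and mucous genes 0.17. Sftpd, a collectin of surfactant, stood at 13.05, 13.22 and 13.33 in PM lungs, against 12.91, 12.48 and 12.72 in PBS lungs. Sftpb, the surfactant protein needed for film formation, stood at 12.39, 12.58 and 12.47 in PM lungs, against 12.86, 13.56 and 13.12 in PBS lungs. These surfactant genes thus lay in opposite directions. Ednrb, the endothelin B receptor of lung capillaries, stood at 10.96, 9.50 and 9.26 in PM lungs, against 11.24, 11.48 and 11.39 in PBS lungs, and its 2 other probe sets differed by -3.31 and -2.81. Dnah5, a dynein of motile cilia, stood at 4.82, 4.34 and 4.84 in PM lungs, against 5.39, 6.11 and 5.67 in PBS lungs. Smooth muscle and pericyte genes gave 6 of 16 above and 1 below (6 and 2 after centring), with a median of 0.45. Cspg4, the pericyte proteoglycan, stood at 6.95, 7.20 and 6.67 in PM lungs and at 6.06, 6.06 and 5.71 in PBS lungs. Hhip, an inhibitor of hedgehog signalling, was the member below, at 8.48, 7.90 and 8.02 in PM lungs against 8.82, 9.0 and 9.13 in PBS lungs, and its 3 other probe sets were lower too.

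Medians were also below 0 for the lists of other tissues that differed between arrays. They were -1.26 for 20 fast skeletal muscle genes, -2.08 for 11 squamous genes, -0.60 for 21 cardiac genes and -0.48 for 15 adipocyte genes. Groups did not overlap in 0, 0, 2 and 1 of these, all below, and in 0, 0, 5 and 1 after centring. With the skeletal muscle level as a covariate the medians were -0.03, -0.78, -0.27 and -0.12, and without the 5 lung arrays high in those genes they were -0.00, 0.06, -0.13 and 0.13. Sprr3, a cornified envelope protein, shows the pattern, at 2.05, 2.21 and 2.21 in PM lungs and 8.07, 2.01 and 7.78 in PBS lungs. Erythroid and platelet genes had a median of 0.11 over 8 members, and mesothelial, thymic and lymph node genes one of -0.10 over 10, with 0 above and 1 below in each (0 and 1, and 0 and 2, after centring). Without the 5 arrays these medians were -0.24 and 0.17. Over the 4 sex chromosome genes tested the median was 0.11, and 3 were above and 0 below (0 and 1 after centring). Those 3 were Eif2s3y, Kdm5d and Uty, which differed by 0.13, 0.04 and 0.08. None of them was above 4 in any dnCREB lung, so their direction rests on low values. Xist, the other member, differed by 5.97, and its groups overlapped.

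**Figure D3:**
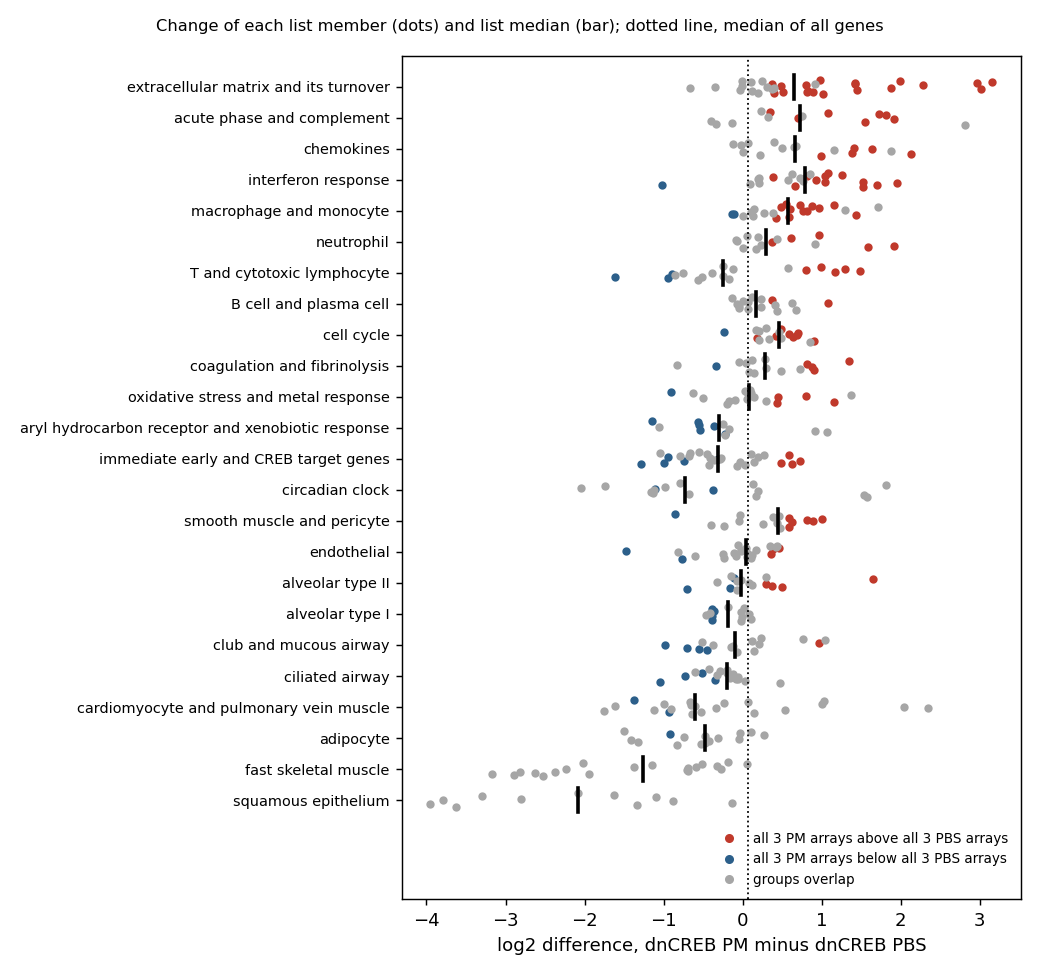
Log2 difference of every measured member (dots) of 24 gene lists, dnCREB PM minus dnCREB PBS, with the list median as a black bar and the median of all genes, 0.07, as a dotted line. Red dots mark genes with all PM lungs above all PBS lungs and blue dots the opposite: 19 of 32 matrix genes and 12 of 22 interferon genes are red, and 6 of 12 xenobiotic genes are blue.

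The wild-type lungs share no array with the comparison, although the fit shares 1 estimate of spread. They too were uneven: fast skeletal muscle genes averaged 8.51, 8.45 and 5.03 in wild-type PM lungs, against 4.21, 4.23 and 4.06 in wild-type PBS lungs. Xist stood at 12.37, 2.89 and 12.30 in wild-type PM lungs, against 2.72, 2.64 and 2.15 in wild-type PBS lungs. Their part in the wild-type values was not tested here. There 277 genes (2.39%) passed the threshold, 227 (1.96%) higher and 50 (0.431%) lower in PM lungs. Of those 277, 13 lie on the X or Y chromosome. In dnCREB lungs 256 (92.4%) had the same sign, against 68.4% of all genes. There 140 (50.5%) had an unadjusted p under 0.05, all with the same sign, against 9.72% of all genes. Both tests use the same estimate of spread per gene, so genes with a small estimate pass more readily in both. The 9.72% is therefore not a like baseline. Groups did not overlap in the same direction in dnCREB lungs for 187 of the 277 (67.5%). They were 167 of the 227 higher genes (73.6%), against 20.8% of all genes above. Of the 50 lower genes they were 20 (40%), against 8.25% of all genes below. The 227 genes higher in wild type had a median difference of 0.65 in dnCREB lungs and 1.40 in wild-type lungs, and the 50 lower genes had -0.22 and -1.26. The wild-type values chose these genes, so the smaller size in dnCREB lungs, seen in 274 of 277, is a description. Fcgr1 differed by 1.43 in dnCREB lungs and by 3.28 in wild-type lungs. Sema3c, a secreted guidance protein of fibroblasts, stood at 12.91, 11.74 and 11.04 in dnCREB PM lungs, against 13.18, 12.98 and 12.72 in dnCREB PBS lungs. It stood at 11.01, 9.61 and 10.90 in wild-type PM lungs, against 13.56, 13.61 and 13.98 in wild-type PBS lungs, where it did not overlap. Its second probe set differed by -2.62 in dnCREB lungs, against -1.06 on this one.

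**Figure D4:**
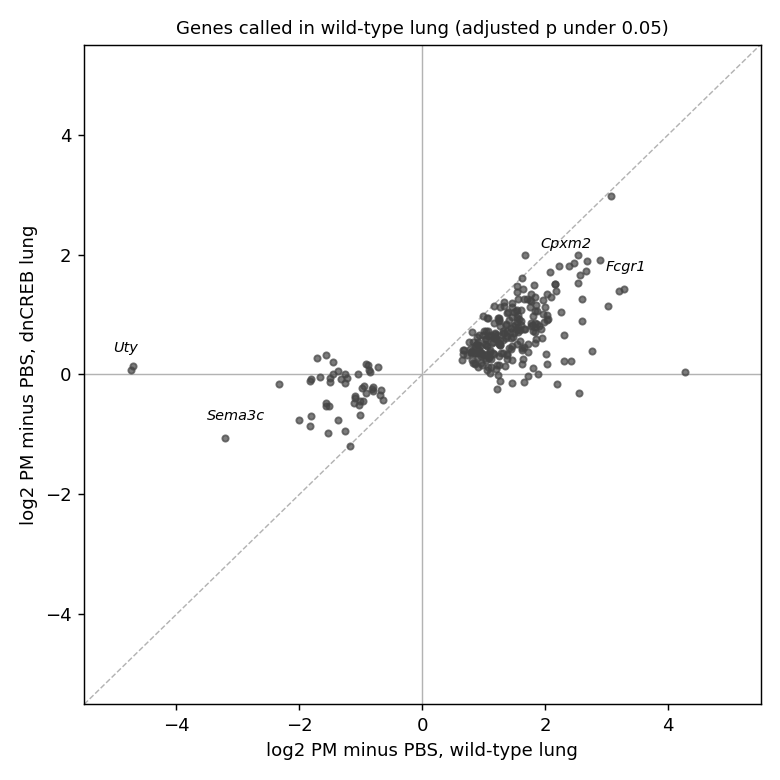
Log2 difference of PM minus PBS in dnCREB lung (vertical) against wild-type lung (horizontal) for the 277 genes that passed in wild-type lung, with the dashed line at equal differences. Of these genes, 256 have the same sign in both and 274 differ by less in dnCREB lung, and Uty, near 0 in dnCREB lung, passed the direct test of the difference.

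The difference between the changes was tested directly and 1 gene passed, Uty, at 4.81 with an adjusted p of 0.0022 by limma. It stood between 2.53 and 2.63 in all 6 dnCREB lungs, while in wild type it stood at 2.54, 3.39 and 2.61 in PM lungs, against 8.27, 7.44 and 7.01 in PBS lungs. Xist was at 12.37, 2.89 and 12.30 in the same wild-type PM lungs, against 2.72, 2.64 and 2.15 in the PBS lungs. The part of sex in this call was not tested. Without an adjustment 606 genes (5.22%) had a p under 0.05. Fbln1 had a difference of changes of -2.03 with an adjusted p of 0.8314, with changes of -1.71 in dnCREB lungs and 0.33 in wild-type lungs. Of the 10 genes highest by rank in dnCREB lungs, 7 passed in wild-type lungs and all 10 did not overlap there in the same direction, with differences of 0.40 to 2.53. The rank by p and the wild-type test share 1 estimate of spread, so the 7 is a description. Of the 10 lower genes, 0 passed in wild type, 8 had the same sign and 4 did not overlap, with differences of -1.02 to 0.33. The share of all genes without overlap in wild-type lungs is not given here, so these counts have no baseline. No difference of changes among these 20 passed, the lowest adjusted p in limma being 0.8314.

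Gdpd3, a lysophospholipase D picked with its values known, differed widely between groups that do not overlap. It stood at 10.51, 10.12 and 10.27 in dnCREB PM lungs, against 3.44, 3.19 and 3.28 in dnCREB PBS lungs. In wild-type lungs it stood at 3.57, 10.91 and 3.30 after PM, against 10.54, 5.14 and 11.17 after PBS, so high and low arrays occurred in both wild-type groups. Its difference in dnCREB lungs was 6.99 ± 1.90 (SE), with an adjusted p of 0.3100 by limma over all 12 lung arrays, and it was the single call when only the 6 dnCREB arrays were fitted.

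The number of genes passing depended on which probe sets were tested. When all 20249 probe sets with 1 symbol were tested, 244 passed, 30 higher and 214 lower in PM lungs, and 216 of those were not the highest probe set of their gene. Of the 8649 other probe sets, 1284 (14.8%) did not overlap above and 2119 (24.5%) below, and 654 were lower by over 1, against 138 of the 11600 highest ones. The 207 other probe sets that passed and were lower came from 200 genes and had a median difference of -1.56. The highest probe sets of the same genes had a median of -0.13, and 135 of the 206 tested were lower. In wild-type lungs 205 of the 207 (99%) were lower as well, with a median of -0.88, against 56.3% of the other probe sets. The wild-type changes did not choose these probe sets, although the wild-type arrays entered the shared estimate of spread. All wild-type PM lungs were below all wild-type PBS lungs in 130, and the share over all other probe sets is not given here. Cmah, an enzyme of sialic acid modification, stood on its lower probe set at 2.35, 2.26 and 2.33 in PM lungs, against 4.09, 4.40 and 4.75 in PBS lungs, while its highest probe set differed by 0.26. Norad, a long noncoding RNA, stood on its lower probe set at 2.78, 2.91 and 3.91 in PM lungs, against 6.45, 7.02 and 6.80 in PBS lungs, while its highest probe set differed by -0.13. Cmah and Norad were picked from the probe sets with the smallest p, with their values known.

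**Figure D5:**
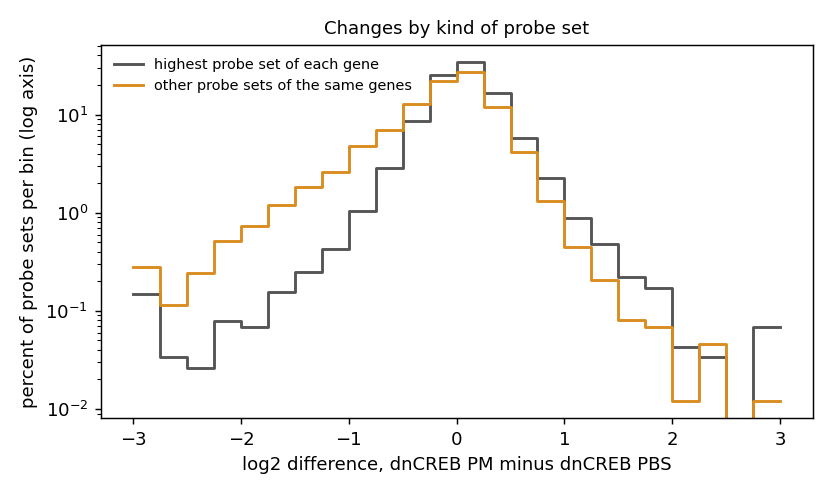
Percent of probe sets per bin of log2 difference, dnCREB PM minus dnCREB PBS, on a log axis, for the highest probe set of each gene and for the other probe sets of genes, with differences beyond the axis collected in the end bins. The other probe sets have a heavier left side, with 654 of 8649 lower by over 1, against 138 of 11600 highest probe sets.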

How the data were processed

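Lung and left ventricle RNA had been hybridised to Affymetrix arrays, and the deposited values are log2 expression per probe set. Per the submitters' processing notes the authors used GCRMA, with no version given. That method removes background estimated from probe sequence, normalizes the arrays to each other and summarises the probes of a set. It can set low probes close to a common floor, so a difference from a low level is less certain than its size. The lowest value per lung array was 0.52 to 0.56 and the median 4.09 to 4.19. Of 45037 probe sets, 34945 matched 1 gene symbol in the annotation table, 932 matched several and 9160 none, and the last 2 kinds were left out.

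No further scaling was applied. One linear model of 4 group means was fitted to the 12 lung arrays (limma 3.58.1, R 4.3.3), variances were moderated by eBayes, and p-values were adjusted by Benjamini-Hochberg over 11600 genes, with a threshold of 0.05. The contrasts were PM minus PBS within dnCREB, the same within wild type, and their difference. In simulated data of that design with 200 changed genes, 41.0% of genes changed by a log2 of 1 were recovered, 90.0% of those changed by 2 and 96.0% of those changed by 3. The simulation gave each gene equal, independent normal spread on every array. The real lung arrays were uneven, with array weights of 0.116 to 3.397, so these rates need not hold for them. In the real data 222 genes were higher and 138 lower by over 1, and 1 passed. Precision is limited by the 3 arrays per group.

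Named genes were the genes passing, filled to 10 in each direction with non-overlapping genes of smallest p, up to 3 of smallest p per list, and a few preset genes, skipping predicted genes. The members, lists and tests were chosen with earlier results of these data known. Alternatives covered probe set choice, filters at 4 and 6, scaling, array weights, covariates and leaving out arrays. Python 3.11.15 with pandas 2.3.3 built the tables, and matplotlib 3.10.9 drew the plots.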

Additional observations from a re-analysis of the deposited data

Results flagged for a closer look

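Uty, on the Y chromosome, differed between the genotypes in its PM minus PBS difference, by 4.81 in the direct test (adjusted p = 0.0022 by limma). That difference was 0.08 in dnCREB lungs and -4.73 in wild-type lungs. Wild-type PM lungs 1 and 3 held Xist at 12.37 and 12.30, while wild-type PBS lungs held 2.15 to 2.72. The part of sex in the Uty values was not tested. Eif2s3y, also on the Y chromosome, lay in opposite directions without overlap in the 2 genotypes, with a difference of changes of 4.84. Eif2s3y did not pass the adjusted threshold (adjusted p = 0.8314 by limma). Its dnCREB values were all under 4 and differed by 0.13, so its direction there rests on low values. Gja5 likewise lay in opposite directions without overlap, with a difference of changes of -1.42 that did not pass (adjusted p = 0.8314). In wild-type lungs Gja5 stood at 3.37, 3.44 and 3.42 after PM and 3.36, 3.34 and 3.37 after PBS, a difference of 0.05. These values were all under 4 and the groups meet at 3.37 as printed, so no clear wild-type change is shown. Opposite directions without overlap occurred in 40 of the 11600 genes.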

How the results depend on the processing

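The call of 1 gene in dnCREB lung rested on the setting. It gave 0 genes with arrays centred on their median, quantile normalization, no filter, a filter at 6, a variance trend with robust estimation, a test against a 1.2-fold change, and without the 5 lung arrays high in skeletal muscle genes. It gave 2 genes, C3ar1 and Cpxm2, with the muscle level as a covariate, 1 (Tap1) with the Xist level as a covariate, 1 (Gdpd3) with only the 6 dnCREB arrays, 244 with all probe sets and 1772 with array weights. Leaving out each array gave 0 to 1 genes, Cpxm2 without dnCREB PM lung 3 or wild-type PBS lung 1 and Gja5 without dnCREB PBS lung 1. Same-numbered PM and PBS lungs had deviations from their group means correlated at -0.146, 0.334 and 0.157, and not every lung correlated best with its own number. These values cannot settle whether the replicate numbers pair the samples, because deviations within a group of 3 arrays depend on one another. With the replicate block 0 genes passed (1075 at an unadjusted p under 0.05) and 1 gene passed for the difference of changes.

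Of alternatives chosen after seeing the data, 0 genes passed without wild-type PBS lung 1 and PM lung 2, 859 with weights on the 6 dnCREB arrays alone, and 170 of 5118 with the second-brightest probe set. For the difference of changes, 3 passed with all probe sets, 2 with array weights, 0 without the 5 arrays, 4 without those 2 wild-type arrays, 0 with the second-brightest probe set, and 1 to 3 with each array left out (3 without wild-type PM lung 2 and 2 without wild-type PBS lung 2). Cpxm2 passed in 7 of 27 settings, with changes of 1.68 to 2.04. At an unadjusted p under 0.05, quantile normalization gave 567 genes higher and 467 lower, against 837 and 290.

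Without the 5 arrays, signs turned for Retn (0.30), Sprr3 (0.12), Tgm3 (0.04), Pf4 (-0.07), Xist (-0.67), Cyp1a1 (-0.01) and F3 (-0.33). F3 was also -0.07 with the Xist covariate, -0.04 without dnCREB PM lung 3 and -0.01 without dnCREB PBS lung 3 (-0.04 to 0.37 over all arrays left out), and Uty was -0.04 after centring. The cause of these changes was not tested. Among the 20 genes ranked highest, 0 of 553 values turned sign. Those genes were chosen for groups that do not overlap, so leaving out arrays could not turn their sign. The count is therefore no measure of how firm they are.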
